A study of Mus musculus with 12 samples.

Results

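The nuclear genes of the mitochondrial respiratory chain were described here in mouse colon with and without thrombospondin-1 (TSP-1), a secreted glycoprotein that inhibits angiogenesis. A probe was included when it carried exactly 1 gene symbol and that symbol named a subunit of NADH dehydrogenase (Nduf genes), succinate dehydrogenase (Sdha to Sdhd), the cytochrome bc1 complex (Uqcr genes), cytochrome c oxidase (Cox4 to Cox8 genes) or ATP synthase (Atp5 genes). The rule took 114 of the 28853 probes on the array, for 89 genes. Of these probes, 41 measured complex I, 7 its assembly factors (Ndufaf genes), 4 complex II, 11 complex III, 21 complex IV and 30 complex V. Another 6 probes matched the rule but carried several symbols and were left out. The 12 Affymetrix MoGene 1.0 ST arrays came from 12 mice, 3 in each of 4 groups, all of the C57BL/6 strain. WT and TSP-1-/- (TSP-null) mice had received azoxymethane (AOM), a colon carcinogen, at 10 mg/kg once, and then drank 1.5% dextran sodium sulfate (DSS), which damages the colonic epithelium, in 4 cycles of 7 days. Their tissue was collected 15 weeks after AOM. The labels call it colon, while the study describes excised tumors and diseased tissue of treated mice, and how much of each sample was tumor is not given in the sources used here. The other WT and TSP-1-/- mice are labelled water controls. The mice were male and 7 weeks old at the start of treatment by the methods. The labels of the water arrays describe another DSS experiment, so whether sex and age hold for the water controls is not known. The targeted allele leaves part of the Thbs1 transcript in place, so the Thbs1 probe does not check the genotype. It read 0.27, -0.16 and -0.07 in the WT AOM/DSS mice and 0.81, 0.85 and 0.93 in the TSP-1-/- AOM/DSS mice.

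Complexes I, III and IV pass electrons from NADH to oxygen and pump protons across the inner mitochondrial membrane, complex II feeds in electrons from succinate, and complex V uses the proton gradient to make ATP. Most subunits are encoded in the nucleus and a few, at the catalytic core, in the mitochondrial genome. In the colon, surface colonocytes oxidise butyrate made by bacteria, and this oxidation depends on the respiratory chain.

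All values are log2 expression relative to a baseline of the same probe, so they show differences between arrays and not how strongly a gene or a tissue marker was expressed. The labelled tissue could therefore not be checked by the presence of its markers. TSP-1-/- AOM/DSS replicate 3 stood apart: the SD over all its probes was 0.753, against 0.293 to 0.453 on the other 11 arrays, and the median of 9 pancreatic acinar markers was 6.96 there, against -0.17 to 0.27 on the other 5 AOM/DSS arrays. The counts and medians of the AOM/DSS mice, and the members that changed most, are also given without that mouse. The deposited water values do not match a table of the authors as the AOM/DSS values do and may have another baseline, so no level was compared between these 2 sets.

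In the AOM/DSS mice, respiratory chain genes were lower without TSP-1. The difference, TSP-1-/- minus WT, was below 0 for 107 of the 114 probes, whereas 37.2% of all probes on the array were below 0. Its median over the member probes was -0.43 on the log2 scale, and the median over all probes was 0.13. The median value of the member probes was -0.08, -0.00 and 0.16 in the 3 WT mice and -0.32, -0.26 and -0.63 in the 3 TSP-1-/- mice. The groups did not overlap, and TSP-1-/- replicate 3 was the lowest of the 6 and WT replicate 3 the highest. All 3 TSP-1-/- values lay below all 3 WT values for 94 probes (82.5%, against 10.7% of all probes), and above them for 2 probes (1.75%, against 20.2% of all probes). In bulk tissue, fewer cells of a type and less RNA per cell cannot be told apart.

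**Figure D1:**
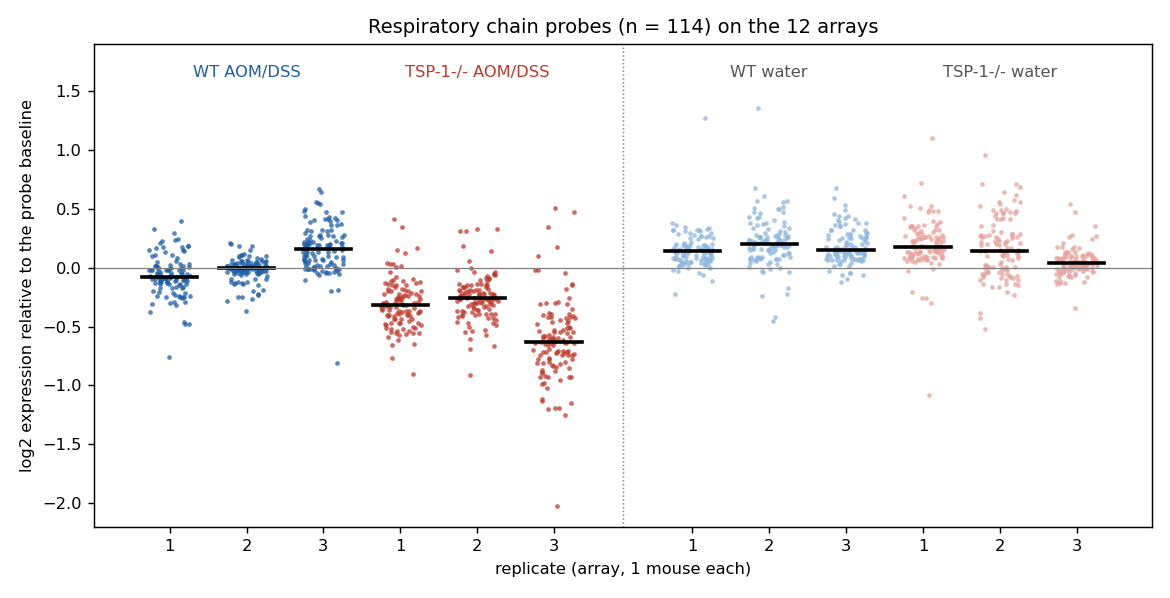
Log2 expression relative to the probe baseline (y axis) of the 114 respiratory chain probes on each of the 12 arrays (x axis, replicates 1 to 3 of each group); a point is a probe and a black bar the median of the array. In the AOM/DSS mice the medians were -0.08 to 0.16 in WT and -0.63 to -0.26 in TSP-1-/- mice, and the dotted line separates the water arrays, which may have another baseline.

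With limma fitted to all 28853 probes, 22 member probes for 20 genes fell and 1 rose at a Benjamini-Hochberg adjusted p under 0.05, the threshold used throughout. The fit pooled the spread of the AOM/DSS and water arrays, where the median SD of member probes was 0.2 and 0.112. The SEs, intervals and p-values of the AOM/DSS differences thus rest in part on the smaller spread of the water arrays. With only the AOM/DSS arrays in the fit, no member probe was called. Over all probes, 2.93% fell and 5.38% rose at this threshold. The probes that fell were 1.38-fold to 1.9-fold lower, and no member probe passed the threshold with a 2-fold difference, as 1.05% of all probes did downwards and 1.73% upwards. Most members lay close to the threshold. At an unadjusted p under 0.05, 86 member probes were lower and 2 higher (10.9% and 21.4% of all probes), and 19 had an adjusted p between 0.05 and 0.06. Of the 17 genes with several probes, Uqcr11 and Cox5b fell on all of them, Ndufc1 and Uqcrb on 1 probe each, and no gene had probes of opposite sign. The median gap between probes of such a gene was 0.0755. Several probes of a gene can hybridise with near-identical copies of it, which the deposited values do not separate.

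The calls depended on single mice while the direction did not. Without TSP-1-/- AOM/DSS replicate 3, the median difference was -0.32, 105 of 114 probes were below 0 and 0 were called by limma, with 56 at an unadjusted p under 0.05. Without WT AOM/DSS replicate 3, the median was -0.38, 106 probes were below 0 and 0 were called, with 68 at an unadjusted p under 0.05. The shares of all probes given above are from the fit of all arrays, and those of these smaller fits are not given here. Without TSP-1-/- replicate 3, complex III kept the lowest median, -0.43, against -0.39 for complex I, -0.34 for II, -0.29 for V and -0.22 for IV, and the assembly factors of complex I were at -0.23. Uqcr11 of complex III (probe 10370833) was then at -0.75 ± 0.17 (SE, adjusted p = 0.0601 by limma) and Cox5b of complex IV (probe 10345504) at -0.62 ± 0.15 (adjusted p = 0.0635). Sdhb of complex II was at -0.59, Ndufb2, Ndufs7 and Ndufc1 (probe 10498058) of complex I were at -0.65, -0.61 and -0.58, and Atp5d of complex V was at -0.53. The muscle form Cox7a1 was at -0.77 and the testis form Cox7b2 at 0.65, so each of these genes kept its direction and none passed the threshold.

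**Figure D2:**
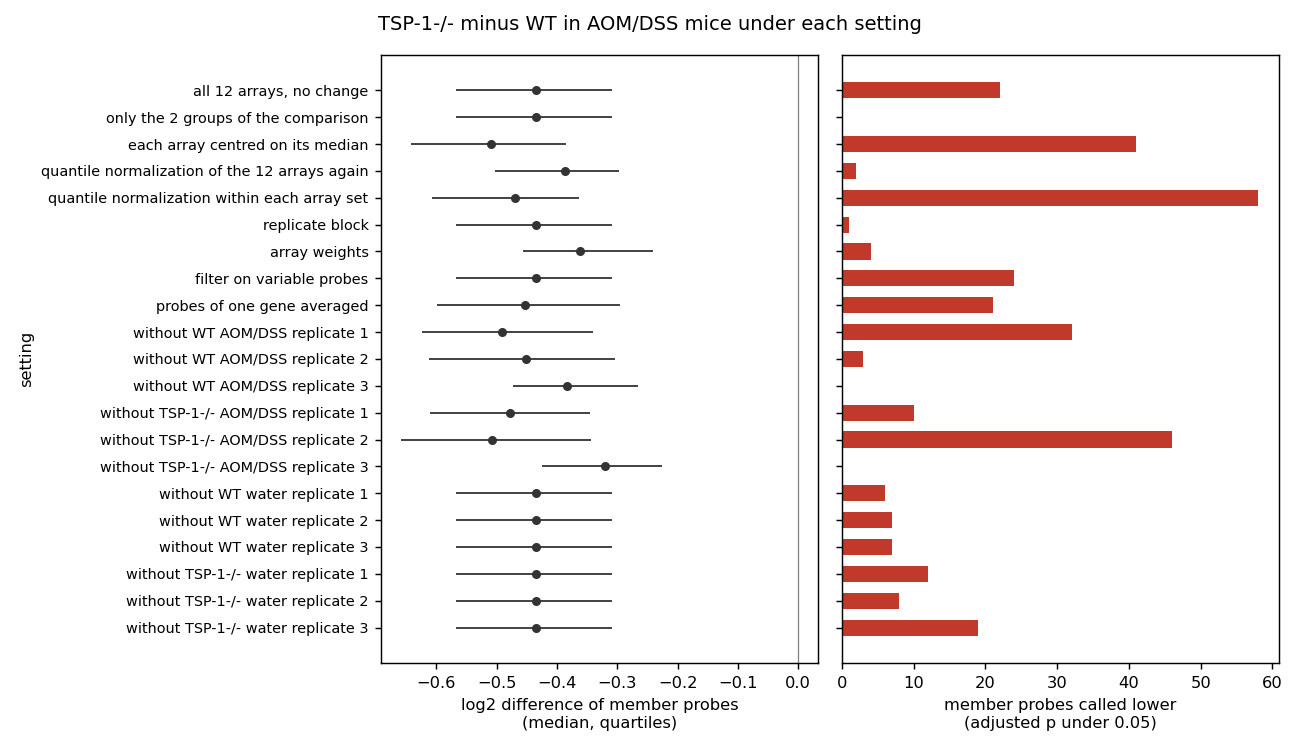
Left, the median and quartiles of the log2 difference (TSP-1-/- minus WT, AOM/DSS mice) of the member probes (x axis) under each setting (y axis); right, bars from 0 with the number of member probes called lower. The medians lay between -0.51 and -0.32, while the number called lower ran from 0 to 58.

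Complex I, the NADH dehydrogenase, held 14 of the 22 probes that fell, among 41, and 38 of its 41 probes were below 0. Its median difference was -0.47, and 37 probes had no overlap between genotypes. Ndufc1, an accessory subunit of the membrane arm (probe 10498058), read 0.02, -0.13 and 0.48 in WT and -0.44, -0.47 and -1.20 in TSP-1-/- mice. The TSP-1-/- mice were all below the WT mice, with a mean of -0.70 ± 0.43 (SD, n = 3) against 0.12 ± 0.32, and the difference was -0.82 ± 0.23 (SE, adjusted p = 0.0469). Ndufs7, a core subunit that holds an iron-sulfur cluster near the quinone site, read -0.02, 0.06 and 0.41 in WT and -0.39, -0.55 and -0.93 in TSP-1-/- mice. These groups were also apart, at -0.77 ± 0.18 (SE, adjusted p = 0.0327). Ndufb2, an accessory subunit, read -0.25, -0.04 and 0.27 in WT and -0.65, -0.66 and -0.73 in TSP-1-/- mice, so that the 3 TSP-1-/- mice lay closer together than the WT mice (-0.68 ± 0.15, SE, adjusted p = 0.0298).

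Accessory subunits made up most of the complex I calls. Ndufa1, Ndufa2, Ndufa3, Ndufa5, Ndufa7, Ndufa12, Ndufb2, Ndufb3, Ndufb6, Ndufb8, Ndufb10 and Ndufc1 fell, which is 12 of the 33 accessory probes, and Ndufs7 and Ndufv2 fell among the 7 core probes. The 33 include Ndufa4, which was counted here by its name. The core subunits Ndufv1 and Ndufs1, which also carry electrons, missed the threshold at -0.62 (adjusted p = 0.057) and -0.48 (adjusted p = 0.053). Ndufs3, also a core subunit, went the other way on both of its probes without passing the threshold, at 0.10 and 0.15. It read 0.24, -0.25 and 0.08 in WT and 0.34, 0.06 and -0.05 in TSP-1-/- mice on probe 10484912, and the groups overlapped. None of the 7 probes for the assembly factors, which help build complex I and are not part of it, passed the threshold. Their median was -0.23, and only Ndufaf7 had no overlap between genotypes.

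Complex II, the succinate dehydrogenase shared with the citric acid cycle, had 4 probes, all below 0 and all without overlap. Sdhb, its iron-sulfur subunit, read -0.17, -0.09 and 0.43 in WT and -0.56, -0.50 and -1.19 in TSP-1-/- mice. It fell by 0.81 on the log2 scale (SE 0.22, adjusted p = 0.0433). Sdha, the flavoprotein that oxidises succinate, read 0.02, 0.19 and 0.21 in WT and -0.22, -0.24 and -0.77 in TSP-1-/- mice, and fell by 0.55 (SE 0.15, adjusted p = 0.0473). The membrane anchors Sdhc and Sdhd were at -0.35 and -0.47 and did not pass the threshold.

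Complex III, the cytochrome bc1 complex, had the lowest median of the 5 complexes, -0.60, and all 11 probes were below 0 without overlap. Uqcr11, a small accessory subunit, had the lowest adjusted p of the member probes. On probe 10370833 it read -0.05, -0.05 and 0.19 in WT and -0.90, -0.54 and -1.25 in TSP-1-/- mice. Every TSP-1-/- mouse was far below every WT mouse, with means of -0.90 ± 0.36 and 0.03 ± 0.14 (SD, n = 3), a difference of -0.93 ± 0.18 (SE, 95% interval -1.33 to -0.53, adjusted p = 0.0207). The other Uqcr11 probe fell by 0.63 (adjusted p = 0.0494). Uqcrb, the ubiquinone-binding subunit, fell on probe 10360026 (-0.74, adjusted p = 0.0315) and was at -0.54 and -0.52 on its other probes. Uqcr10, a small subunit, fell by 0.57 (adjusted p = 0.0397). The core protein Uqcrc1 and the Rieske iron-sulfur protein Uqcrfs1 did not pass the threshold, at -0.71 (adjusted p = 0.0848) and -0.63 (adjusted p = 0.0531).

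Complex IV, cytochrome c oxidase, was the most mixed, with 17 of 21 probes below 0, a median of -0.35 and differences from -1.22 to 0.73. Its probes above 0 were those of Cox4i2, Cox6a2, Cox7b2 and Cox8c, all heart, muscle, lung or testis forms. The 14 probes of the complex that do not measure such forms ran from -0.84 to -0.18. Cox5b, a nuclear subunit on the matrix side, was the only gene of the complex that fell. On probe 10345504 it read 0.00, 0.08 and 0.39 in WT and -0.55, -0.36 and -1.12 in TSP-1-/- mice, a difference of -0.84 ± 0.18 (SE, adjusted p = 0.0269), and its other probe fell by 0.49 (adjusted p = 0.0388). Cox7b2, the testis form of subunit VIIb, was the only member that rose. It read -0.16, -0.28 and -0.81 in WT and 0.15, 0.33 and 0.47 in TSP-1-/- mice, so the genotypes were apart in the direction opposite to Cox5b, at 0.73 ± 0.18 (SE, adjusted p = 0.0375).

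Subunits of complex IV that exist as a general form and a heart, muscle, lung or testis form were compared side by side. The heart and muscle form Cox7a1 had the largest difference of the member probes, -1.22 ± 0.35 (SE), and missed the threshold (adjusted p = 0.0506). It read -0.21, -0.03 and 0.47 in WT and -0.48, -0.91 and -2.03 in TSP-1-/- mice, without overlap and with replicate 3 far below its group. The general form Cox7a2 was at -0.46 (adjusted p = 0.0538). For subunit VIII, the muscle form Cox8b was at -0.82 (adjusted p = 0.11) and the general form Cox8a at -0.53 (adjusted p = 0.0622). For subunit IV, Cox4i1, the general form, was at -0.52 (adjusted p = 0.0543) and Cox4i2, the lung form, at 0.07 (adjusted p = 0.733), a value that changed sign when each array was centred on its median or normalized again. Cox8c, the testis form of subunit VIII, read -0.01, -0.37 and -0.05 in WT and 0.01, 0.14 and 0.10 in TSP-1-/- mice, above WT without overlap, and did not pass the threshold (0.23, adjusted p = 0.348). Cox6a1 and Cox6b1 were at -0.24 and -0.23, and their muscle and testis forms Cox6a2 and Cox6b2 at 0.30 and -0.19, none past the threshold. Ndufa4, counted with complex I by its name but found in complex IV, was at -0.14, and its hypoxia-induced relative Ndufa4l2 at 0.34, again not past the threshold. Over the 8 members that are tissue-restricted or, for Ndufa4l2, hypoxia-induced, the median was 0.15, with differences from -1.22 to 0.73. Over the other 106 probes the median was -0.45.

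Complex V, the ATP synthase, had no call, although all 30 probes were below 0. Of these, 27 had no overlap, the median was -0.39 and the lowest adjusted p was 0.0526, for Atp5o, which joins the catalytic head to the peripheral stalk. The delta subunit Atp5d was lowest, reading 0.02, -0.02 and 0.47 in WT and -0.52, -0.22 and -0.93 in TSP-1-/- mice (-0.71 ± 0.22, SE, adjusted p = 0.0578). The catalytic subunit Atp5b and its partner Atp5a1 were nearer 0, at -0.26 and -0.33. The probes that overlapped were the 3 probes of Atp5g2. Atp5g1, Atp5g2 and Atp5g3 encode the same c-ring protein, and their probes were at -0.64 and -0.61, at -0.10 to -0.09, and at -0.39. The first probe of Atp5g1 read 0.24, 0.06 and 0.19 in WT and -0.39, -0.08 and -0.95 in TSP-1-/- mice.

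**Figure D3:**
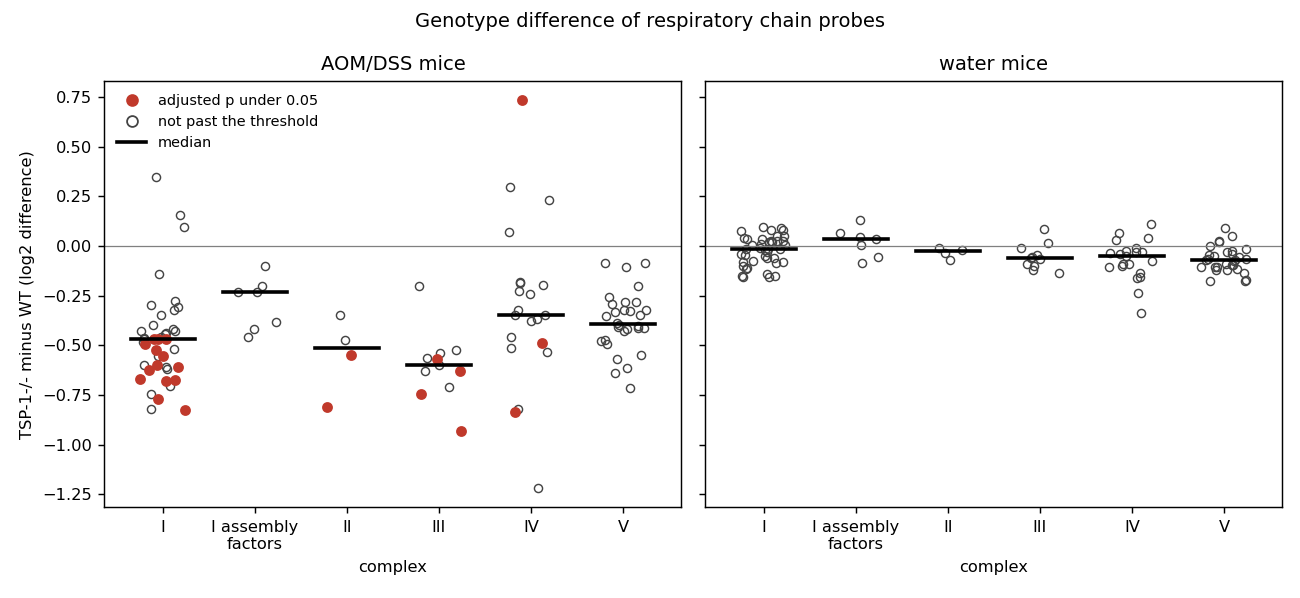
Log2 difference TSP-1-/- minus WT (y axis) of each member probe by complex (x axis), in AOM/DSS mice (left) and water mice (right); red points passed an adjusted p of 0.05 and bars are medians. In AOM/DSS mice the medians of complexes I to V ran from -0.60 (III) to -0.35 (IV) and no probe of complex V was called, while in water mice no probe was called.

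**Figure D4:**
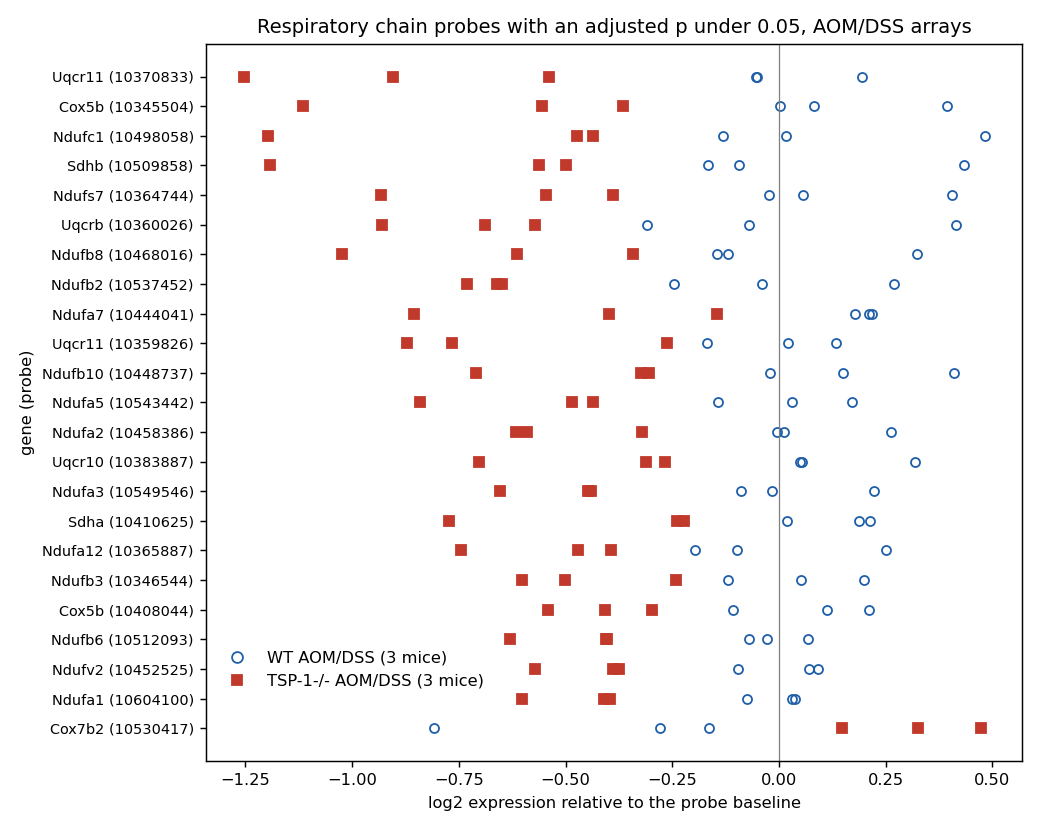
Log2 expression relative to the probe baseline (x axis) of the 23 member probes called in the AOM/DSS mice (y axis, gene and probe), with 3 WT mice (circles) and 3 TSP-1-/- mice (squares). The TSP-1-/- values lay to the left of the WT values for 22 probes and to the right for Cox7b2.

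Promoters are shown for the complex III and II genes that fell with the largest differences in their complexes, for Cox5b, and for Cox7b2, which rose. The RefSeq table (GRCm38.p6) held promoters of 250 bases before to 50 bases after the start for 73 of the 89 genes. Capitals mark matches on either strand to GCGCATGC, the core of the nuclear respiratory factor 1 motif, or CCGGAAG, a GABPA motif; these factors regulate many nuclear respiratory genes. The intervals are chr10:80406772-80407071 on the minus strand for Uqcr11, chr4:140961021-140961320 on the plus strand for Sdhb, chr1:36691237-36691536 on the plus strand for Cox5b and chr5:71548156-71548455 on the minus strand for Cox7b2.
Uqcr11: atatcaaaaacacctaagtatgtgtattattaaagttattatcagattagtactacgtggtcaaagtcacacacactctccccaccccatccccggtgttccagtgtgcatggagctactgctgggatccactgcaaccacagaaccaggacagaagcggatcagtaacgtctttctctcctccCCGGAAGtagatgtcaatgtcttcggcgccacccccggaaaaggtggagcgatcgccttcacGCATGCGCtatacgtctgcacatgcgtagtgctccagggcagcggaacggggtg
Sdhb: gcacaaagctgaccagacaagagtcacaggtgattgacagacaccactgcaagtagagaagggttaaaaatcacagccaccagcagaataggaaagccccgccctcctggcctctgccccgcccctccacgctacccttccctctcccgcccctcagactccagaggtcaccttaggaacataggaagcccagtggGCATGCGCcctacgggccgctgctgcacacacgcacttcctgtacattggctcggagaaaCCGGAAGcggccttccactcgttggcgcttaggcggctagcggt
Cox5b: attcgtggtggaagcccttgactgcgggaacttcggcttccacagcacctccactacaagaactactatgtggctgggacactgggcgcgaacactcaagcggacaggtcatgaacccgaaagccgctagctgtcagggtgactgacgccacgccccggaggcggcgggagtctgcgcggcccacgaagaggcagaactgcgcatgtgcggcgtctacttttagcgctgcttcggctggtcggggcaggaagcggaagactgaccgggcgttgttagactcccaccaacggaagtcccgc
Cox7b2: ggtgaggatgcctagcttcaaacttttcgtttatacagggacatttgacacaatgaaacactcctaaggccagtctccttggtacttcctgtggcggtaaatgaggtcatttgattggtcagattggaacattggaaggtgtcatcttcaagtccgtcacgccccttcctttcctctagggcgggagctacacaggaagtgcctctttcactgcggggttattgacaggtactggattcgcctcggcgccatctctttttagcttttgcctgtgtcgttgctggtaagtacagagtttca
Uqcr11 and Sdhb each held both motifs, and Cox5b and Cox7b2 held none of the exact letters. GCGCATGC occurred in 15.4% of the 78 member promoters and in 2.71% of all 32851 promoters. CCGGAAG occurred in 23.1% and 8.86%, and the estrogen-related receptor motif AAGGTCA in 8.97% and 4.72%. No match to a motif overlapped a match to another in the promoters shown. A match is a run of letters and not a measured binding site.

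In the water mice, the same genes showed no difference that passed the test. The median difference was -0.05, and limma called 0 of the 114 member probes, with 0 at an unadjusted p under 0.05 (0.423% of all probes lower and 0.576% higher). The median SD of member probes was 0.2 on the AOM/DSS and 0.112 on the water arrays, and the fit pooled the 2. The intervals and p-values of the water differences thus rest in part on the larger spread of the AOM/DSS arrays. With only the water arrays in the fit, 0 member probes were called as well. The difference was below 0 for 81 of the 114 (50.6% of all probes). The member medians were 0.14, 0.20 and 0.15 in WT and 0.18, 0.14 and 0.04 in TSP-1-/- mice, and the groups overlapped. All 3 TSP-1-/- mice lay below all 3 WT mice for 5 probes (4.39%, against 2.88% of all probes), of Ndufs6, Ndufv3, Cox7b, Atp5l and Atp5mpl, and above them for Cox6a2 and 1 probe of Atp5pb (1.75%, against 2.29% of all probes). For Uqcr11 (probe 10370833) the difference was -0.01 with a 95% interval of -0.41 to 0.39, and for Sdhb it was -0.01 with an interval of -0.48 to 0.46, so moderate differences in either direction were not excluded by these intervals. In the water mice, the median of 7 colon identity markers was -2.22 in WT replicate 3 and lay between 0.12 and 0.79 in the other 5 mice; the part of this in the result was not tested.

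The genotype differences of the 2 treatments were then compared directly. The AOM/DSS difference minus the water difference was below 0 for 107 of the 114 member probes (37.4% of all probes), with a median of -0.38. No member probe passed the threshold (0.00694% of all probes did, 2 in number), and the lowest adjusted p was 0.235, for Uqcr11 at -0.92 ± 0.26 (SE). At an unadjusted p under 0.05, 35 member probes were lower and 2, Cox7b2 and Ndufa4l2, were higher (5.42% and 9.96% of all probes). A difference in response between AOM/DSS and water was therefore not established for any single member.

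Treatment itself was not tested, and only signs were counted. In the study's methods, 0 is the median of all 12 mice. On that baseline, a probe whose 6 AOM/DSS values lay on one side of 0 would have separated treatments. The exact two-sided permutation p of this is 0.00216 for a single probe. The deposited member values were not centred this way: over the 12 arrays only 3 member probes had a median of 0 within 0.0001. That p therefore does not apply here, and the signs below are relative to an unknown baseline. The treatment and the set of arrays also cannot be told apart. All 6 AOM/DSS values were below 0 for Ndufs4 and Atp5j (1.75%, against 4.02% of all probes) and above 0 for no member (2.02% of all probes). By genotype, all 3 TSP-1-/- AOM/DSS values were below 0 for 101 member probes (88.6%, against 21.1% of all probes) and all 3 WT AOM/DSS values for 6 (5.26%, against 20.6% of all probes). Most members were thus below the baseline in the TSP-1-/- AOM/DSS mice and around it in the WT AOM/DSS mice.

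The members varied together from mouse to mouse. Over the 6 AOM/DSS arrays, the correlation of a member probe with the median of the other members had a median r of 0.958, was over 0.8 for 98 probes and was below 0 for 7, those of Cox4i2, Cox6a2, Cox7b2, Cox8c, Ndufa4l2 and Ndufs3. Over the 6 water arrays the median r was 0.526. These points share the genotype groups and the normalization of each array, and the values are a description.

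Other genes of the pathway were counted in the AOM/DSS mice from lists of named genes. Over all probes, 2.93% fell, 5.38% rose and 37.2% were below 0. Cycs, the somatic cytochrome c that carries electrons from complex III to IV, fell on probe 10544687 (-0.94, adjusted p = 0.026), while its other probes were at -0.41 (adjusted p = 0.136) and -0.23 (adjusted p = 0.271), not past the threshold. Cyc1, cytochrome c1 of complex III, fell by 0.66 (adjusted p = 0.0492). The testis cytochrome c, Cyct, rose by 0.76 (adjusted p = 0.0277). Among the testis forms of complex IV, Cox7b2 also rose, while Cox8c (0.23) and Cox6b2 (-0.19) did not pass the threshold. Of 39 probes for assembly factors outside the rule, 38 were below 0 and 6 fell, among them Sco1, a copper chaperone of complex IV (-0.99, adjusted p = 0.025), and Uqcc3 and Uqcc1, which assemble complex III (-0.77 and -0.72). All 17 probes of the citric acid cycle and pyruvate dehydrogenase were below 0, with a median of -0.42, and 5 fell, including Suclg1 (-0.82, adjusted p = 0.0375), Suclg2 and Fh1. Of 85 mitochondrial ribosome probes, 84 were below 0 with a median of -0.37, and 6 fell, led by Mrpl47 at -0.98 (adjusted p = 0.0137). Without TSP-1-/- replicate 3, 39 of 39 assembly factor probes, 16 of 17 citric acid cycle probes and 81 of 85 ribosome probes were below 0, with medians of -0.32, -0.27 and -0.29, and Mrpl47 (-0.87, adjusted p = 0.04) was the only call. Cycs (probe 10544687) was then at -0.76, Cyc1 at -0.46 and Cyct at 0.78, none past the threshold. The shares of all probes in the fit without this mouse are not given here, for these lists or those below.

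The mitochondrial genome itself was measured by 4 probes, for COX2 and ND3. Their median difference was -0.07 and none was called, so the transcripts measured from this genome did not pass the test in either direction. Of 16 probes for regulators of mitochondrial biogenesis, 10 were below 0 (37.2% of all probes were), with a median of -0.18. Among them Tfam, which packages mitochondrial DNA and helps start its transcription, fell by 0.49 (adjusted p = 0.0426). Nrf1, nuclear respiratory factor 1, rose by 0.56 (adjusted p = 0.0387). Of 14 probes for carriers, 11 were below 0 with a median of -0.31. Only Vdac3, a channel of the outer membrane, fell, on 1 of its 3 probes (10577534, -0.65, adjusted p = 0.0418). Of 21 glycolysis probes, 17 were below 0 with a median of -0.21, and only Pfkm, muscle phosphofructokinase, fell (-0.54, adjusted p = 0.0369). Over all probes, 2.93% fell and 5.38% rose, and single calls in lists this small are not far from these shares. Without TSP-1-/- replicate 3, none of these was called, and the medians were -0.01 for the mitochondrially encoded probes, -0.14 for the regulators, -0.15 for the carriers and -0.15 for glycolysis, with 13 of its 21 probes below 0. Tfam was then at -0.43, Nrf1 at 0.49, Vdac3 at -0.50 on the same probe and Pfkm at -0.51. In water mice 0 probes of these lists were called, and 0 were at an unadjusted p under 0.05.

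**Figure D5:**
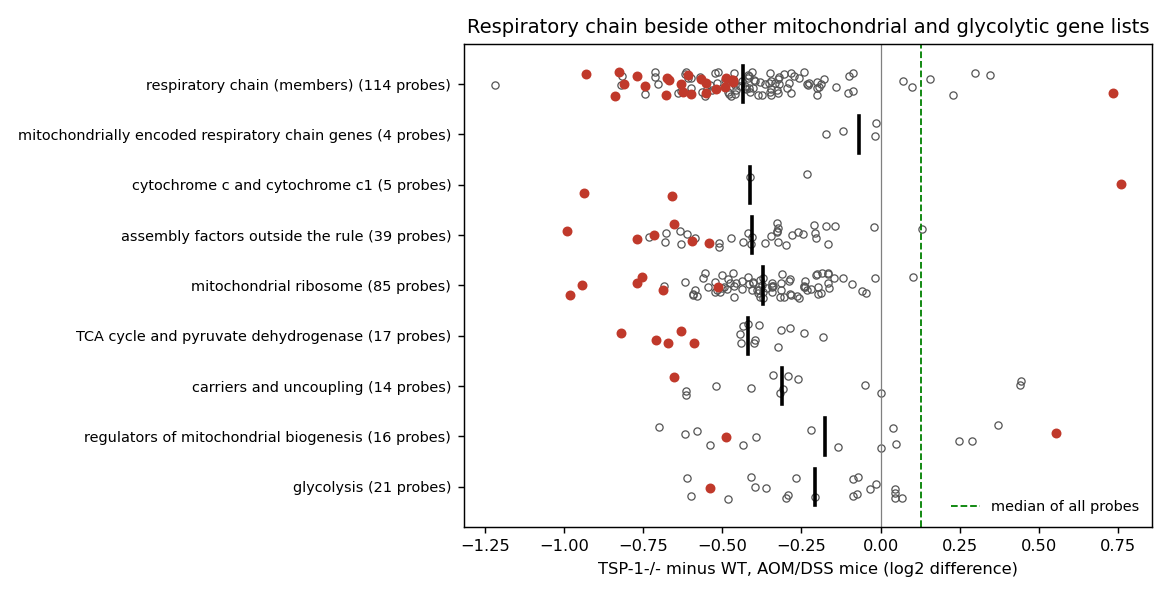
Log2 difference TSP-1-/- minus WT in the AOM/DSS mice (x axis) of the respiratory chain probes and of 8 related lists (y axis); red points passed an adjusted p of 0.05, black bars are list medians and the dashed line is the median of all probes, 0.13. The medians of the nuclear lists for the respiratory chain, its assembly, the mitochondrial ribosome and the citric acid cycle lay between -0.43 and -0.37, and that of the 4 mitochondrially encoded probes at -0.07.

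Markers of other cell types also differed between the genotypes in some lists, and their part in the result was not tested. Over all probes in the AOM/DSS mice, 2.93% fell, 5.38% rose and 37.2% were below 0. At an unadjusted p under 0.05, 10.9% were lower and 21.4% higher. Of 12 markers of mature surface colonocytes, all were below 0 in TSP-1-/- AOM/DSS mice, with a median of -0.66, and 1, Car1, fell by 1.09 (adjusted p = 0.0445). The array medians of that list were 0.23, 0.07 and 0.10 in WT and -0.24, -0.09 and -1.63 in TSP-1-/- mice, lowest in the mouse with the lowest respiratory chain values. Of 7 colon identity markers, Car1 among them, 4 were below 0 (median -0.47) and only Car1 was called. Of 12 general epithelial markers 11 were below 0 (median -0.41) and 0 were called, with 6 at an unadjusted p under 0.05. All 10 smooth muscle markers were below 0 (median -0.41), with 0 called and 1 at an unadjusted p under 0.05. All 9 immune cell markers were above 0, and Cd79a, Lyz2 and Csf1r rose by 2.69, 1.78 and 1.03. Their array medians were 0.31, -0.27 and -0.03 in WT and 1.50, 0.57 and 3.39 in TSP-1-/- mice. Of 9 pancreatic acinar markers, all above 0, only Pnliprp1 rose (4.45, adjusted p = 0.0363), and of 9 adipocyte markers 6 were below 0 (median -1.24), Cidec and Retn fell (-2.23 and -2.04) and Cidea, Plin1 and Ucp1 were above 0. Of 10 skeletal muscle markers only Atp2a1 rose (0.62, adjusted p = 0.0413), and of 13 probes for proliferating cells 0 were called, with 2 at an unadjusted p under 0.05. Skeletal muscle markers were above 0 for 9 of 10 probes (median 0.35) and proliferation probes for 9 of 13 (median 0.24). In the water mice, 0 probes of the marker lists were called. All 9 immune cell markers were above 0 there too (median 0.46), with 2 at an unadjusted p under 0.05. Of the 9 pancreatic acinar markers, 1 was below 0 in water mice (median 0.38). The medians of the other marker lists lay between -0.08 and 0.13 in water mice.

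Without TSP-1-/- AOM/DSS replicate 3, 0 probes of these marker lists were called and several lists stood closer to 0. Mature surface colonocyte markers were below 0 for 6 of 12 probes (median -0.19), and the colon identity median changed sign to 0.25, with 3 of 7 probes below 0. General epithelial markers were below 0 for 10 of 12 probes (median -0.19) and smooth muscle markers for 7 of 10 (median -0.22). Immune cell markers were above 0 for 8 of 9 probes (median 1.06), and pancreatic acinar markers for 8 of 9 (median 0.29). Adipocyte markers were below 0 for 7 of 9 probes (median -1.46). Skeletal muscle and proliferation medians were 0.38 and 0.32. The respiratory chain median without this mouse was -0.32, and the part of the markers in it was not tested.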

How the data were processed

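RNA of colon tissue from 12 mice, per the labels, was hybridised to 1 Affymetrix MoGene 1.0 ST array each. The authors summarised probes with PLIER16, applied quantile normalization and deposited log2 values relative to a per-probe baseline. Their methods give this baseline as the median of the 12 samples. Of 377 genes in a table of the authors, 376 matched exactly 1 probe in both AOM/DSS group means within 0.0001, and 0 matched in the water means. The AOM/DSS values are thus those of the authors' table. The baseline of the deposited values is not known, as only 3 of the 114 member probes had a median of 0 over the 12 arrays. The authors' own fold changes and p-values were not used. Water arrays came from an earlier submission whose labels describe another DSS experiment.

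Groups came from the labels. Values were used as deposited, with no further filter. Genotypes were compared within each treatment, and these differences with each other, by limma 3.58.1 in R 4.3.3 (1 mean per group, moderated variances, all 12 arrays), with Benjamini-Hochberg adjustment over all probes (28853 for AOM/DSS; 28815 with values on all 12 arrays otherwise). The median pooled SD of member probes was 0.2 on the AOM/DSS and 0.112 on the water arrays. The labels name biological replicates, 3 in each group, and their number limits the precision. Scripts were tested on simulated data.

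Members and lists were chosen with earlier results of these data known. Genes named are the 10 largest called rises and falls, core subunits, isoform pairs, and up to 3 called genes per list; values of Atp5d, Atp5o, Ndufs3, Sdhc, Sdhd, Uqcr10 and the Atp5g genes, and the call lists of complex I, were added after their values were seen. Cox8c, Ndufaf7 and other members named for their signs or for groups without overlap were also outside these rules. No protein sequences and no genome were used here. Alternatives were other scalings, array weights, a filter at 25% variation, averaged probes, the replicate number as a block, and leaving out each array.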

Additional observations from a re-analysis of the deposited data

Results flagged for a closer look

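For 1 probe of Atp5pb (10500990), a subunit of the peripheral stalk of ATP synthase, the genotype groups were apart in opposite directions in the AOM/DSS and the water mice. In AOM/DSS mice it read -0.04, -0.09 and 0.19 in WT and -0.30, -0.21 and -0.63 in TSP-1-/- mice, and in water mice 0.07, 0.08 and 0.06 in WT and 0.12, 0.29 and 0.08 in TSP-1-/- mice. The AOM/DSS difference minus the water difference was -0.49 ± 0.20 (SE), and limma did not call it (adjusted p = 0.285). The other Atp5pb probe gave -0.27 ± 0.18 (SE, adjusted p = 0.467). Groups of 3 arrays are too small to look for outlying samples by the gap to the nearest value.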

How the results depend on the processing

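The median difference of the respiratory chain probes in AOM/DSS mice stayed below 0 under all 20 alternatives, between -0.51 and -0.32, with 105 to 108 of the 114 probes below 0. The number of calls, 23 in the fit of all 12 arrays, did not hold. It was 0 when the fit held only the 6 AOM/DSS arrays, 42 with each array centred on its median (1 rise and 41 falls, of which 2 reached 2-fold), 2 after quantile normalization of the 12 arrays again, 59 after quantile normalization within each set and 4 with array weights. Leaving out single arrays gave 0 to 47 calls: in order of replicate, 33, 3 and 0 without a WT mouse given AOM/DSS, 11, 47 and 0 without a TSP-1-/- mouse given AOM/DSS, and 6, 8, 8, 12, 8 and 20 without the water arrays, which enter only through the pooled variance. The cause of the other changes was not tested. The shares of all probes called under each of the alternatives are not given here, so these counts were not set against them. With the replicate number as a block there was 1 call. Same-numbered AOM/DSS arrays deviated with correlations of 0.0261, -0.0421 and -0.0244 and water arrays with 0.0931, 0.281 and 0.402. Water arrays of the 2 genotypes with different numbers had correlations from -0.377 to 0.183. Not every same-numbered pair was over 0.1, so the numbers were not taken to pair the mice. A shared batch of same-numbered water arrays was not tested. The median of all probes in AOM/DSS mice was 0.13 as deposited, 0.05 after centring and 0.02 after either quantile normalization.

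In water mice 0 member probes were called under each of the 21 settings, with 0 to 1 at an unadjusted p under 0.05, and leaving out single arrays gave medians of -0.07 to -0.01. For the difference of the differences 0 were called under each of the 20 settings, with 12 to 51 at an unadjusted p under 0.05. The shares of all probes under these alternatives are not given here either. Its median without single arrays ran from -0.45 to -0.25, the latter without TSP-1-/- AOM/DSS replicate 3. The count of members with all AOM/DSS values below 0 was 2 to 43 without single arrays, and 0 after centring (4.34% of all probes). It was 11 without WT AOM/DSS replicate 2 (9.65%, against 5.98% of all probes). Without WT AOM/DSS replicate 3 it was 43 (37.7%, against 6.99% of all probes). The pathway and marker lists without TSP-1-/- AOM/DSS replicate 3 were added after seeing the data. Of the named members, only uncalled ones changed sign. Cox4i2 was at -0.0051 after centring, -0.042 and -0.051 after quantile normalization of all arrays and within sets, and from -0.015 to 0.17 when single arrays were left out, below 0 only for replicate 3 of the TSP-1-/- AOM/DSS mice. Cox6b2 ran from -0.48 to 0.087 (without WT AOM/DSS replicate 3). Relative values hold no signal over background, so dim probes could not be set aside.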
